A study of Mus musculus with 36 samples.

Results

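Zinc-finger protein genes of the mouse, whose symbols begin with Zfp and a digit, were followed through 3 tables of histone-mark peaks that differ between knockout and wild-type aortic smooth muscle cells. All rows with such a symbol were taken, whatever their place in or near the gene, except the 21 H3K9me3 rows of Zfp423. They came to 108 peaks at 87 genes, of 13958 peaks at 9822 genes in the 3 tables. H3K9ac held 71 of these peaks at 60 genes, of 8115 peaks at 5911 genes. H3K9me3 held 28 peaks at 27 genes, of 5374 peaks at 3951 genes, and H3K4me3 held 9 peaks at 9 genes, of 469 peaks at 456 genes. The gene descriptions in the tables call all 87 a zinc finger protein, and 2 of them, Zfp520-ps and Zfp353-ps, are pseudogenes.

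Proteins with zinc fingers of the C2H2 type bind DNA through tandem fingers, each held in shape by a zinc ion. Many of them carry a Krab domain, which recruits the corepressor Trim28 and the methyltransferase Setdb1, and H3K9me3 is then laid down around the bound site. The genes of this family have multiplied by duplication and stand in clusters, and their own bodies are known as sites of H3K9me3 in several cell types. A few members differ in kind: Zfp36 and Zfp36l2 have CCCH fingers, bind AU-rich elements of mRNA and bring about mRNA decay. H3K9ac and H3K4me3 mark active promoters, and H3K9me3 marks heterochromatin.

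The cells were primary aortic smooth muscle cells of mice with a whole-body knockout of CSE, and of C57BL/6N wild-type mice. CSE (cystathionine gamma-lyase, encoded by Cth) makes hydrogen sulfide, and because the knockout is global it acts in every cell type of the donor animals. Both genotypes received 1 µM angiotensin II for 24 hours, so no untreated cells are part of the comparison. Chromatin immunoprecipitation with sequencing gave 36 libraries in 12 groups of 3, namely knockout and wild type for each mark, as precipitated chromatin (18 libraries) or input. The labels do not say whether the 3 libraries of a group are separate animals or cultures, so the p-values and FDRs of the authors may measure technical spread only. The values are the authors' means per genotype, with no value per library, and the number of reads per library is not known from these tables. A peak is in a table because its p was under 0.05 in the authors' comparison, per the title of the file, and each listed member had already passed. No listed p was below 0.0001 either, so the tables hold neither unchanged peaks nor those of smallest p, and any ranking is among listed peaks. The H3K4me3 table gives no fold change, p or direction.

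Markers of the labelled cell type were looked up in the same tables. H3K9ac peaks were listed at 7 of 10 smooth muscle marker genes (by the peak of smallest p, 6 lower and 1 higher in knockout), 2 of 5 endothelial (1 lower and 1 higher), 2 of 5 leukocyte (both higher, Aif1 and Cd14), 2 of 5 fibroblast (1 lower and 1 higher) and 1 of 4 adipocyte marker genes (lower). By the same measure 75.8% of all listed genes were lower, and 18.1% of all protein-coding genes had a listed H3K9ac peak. An FDR under 0.05 was reached by 2 of the smooth muscle genes. Lmod1 was lower (FDR 0.0335) and Smtn higher (FDR 0.0435) in the authors' deposited table. At the Acta2 (smooth muscle actin) peak of smallest p the log2 mean of normalised H3K9ac reads was 7.28 in knockout and 7.88 in wild type in the authors' deposited table. Another Acta2 peak, intergenic, went the other way, with 5.43 in knockout and 4.46 in wild type in the authors' deposited table. At the promoter of Cd14, a monocyte marker, the log2 mean was 10.34 in knockout and 9.5 in wild type in the authors' deposited table. Both genes therefore had signal in both genotypes, whereas a gene missing from a table may be unmarked, unchanged or changed with a p below the smallest listed. In bulk chromatin, fewer cells of a type and less of a mark per cell cannot be told apart, and the part of other cell types in the results on zinc-finger genes was not tested.

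The promoters that carry the results with the most certain position are printed here. In 4 of them, Zfp422, Zfp239, Zfp773 and Zfp385b, an H3K9ac peak with an FDR under 0.05 covered at least part of the gene's own RefSeq promoter window, 250 bases before to 50 bases after the start. In the other two, Zfp296 and Zfp365, that window was covered by a listed H3K9ac peak and touched by a listed H3K4me3 peak. The windows are Zfp422 at chr6:116628652-116628951 (minus strand), Zfp239 at chr6:117862631-117862930 (plus), Zfp773 at chr7:7136706-7137005 (minus), Zfp385b at chr2:77703223-77703522 (minus), Zfp296 at chr7:19577037-19577336 (plus) and Zfp365 at chr10:67912613-67912912 (minus), all from RefSeq on GRCm38.p6. They run 5′ to 3′ along the gene, and capitals mark CpG dinucleotides, the sites of DNA methylation.
Zfp422: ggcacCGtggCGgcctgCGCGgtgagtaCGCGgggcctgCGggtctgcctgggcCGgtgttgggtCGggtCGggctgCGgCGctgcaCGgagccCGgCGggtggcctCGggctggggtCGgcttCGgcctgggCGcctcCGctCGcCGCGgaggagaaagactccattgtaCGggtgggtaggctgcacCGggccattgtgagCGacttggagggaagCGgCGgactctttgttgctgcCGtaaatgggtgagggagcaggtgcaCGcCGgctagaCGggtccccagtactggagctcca
Zfp239: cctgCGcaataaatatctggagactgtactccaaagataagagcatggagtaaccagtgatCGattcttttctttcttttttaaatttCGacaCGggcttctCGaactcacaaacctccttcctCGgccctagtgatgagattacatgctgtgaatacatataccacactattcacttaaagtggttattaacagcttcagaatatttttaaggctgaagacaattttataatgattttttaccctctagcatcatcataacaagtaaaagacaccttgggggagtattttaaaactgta
Zfp773: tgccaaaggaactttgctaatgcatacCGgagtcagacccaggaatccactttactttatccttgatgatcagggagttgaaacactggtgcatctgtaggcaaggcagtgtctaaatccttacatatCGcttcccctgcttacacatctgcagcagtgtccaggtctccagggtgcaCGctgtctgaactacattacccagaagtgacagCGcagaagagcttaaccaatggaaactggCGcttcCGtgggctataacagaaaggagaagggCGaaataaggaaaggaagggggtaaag
Zfp385b: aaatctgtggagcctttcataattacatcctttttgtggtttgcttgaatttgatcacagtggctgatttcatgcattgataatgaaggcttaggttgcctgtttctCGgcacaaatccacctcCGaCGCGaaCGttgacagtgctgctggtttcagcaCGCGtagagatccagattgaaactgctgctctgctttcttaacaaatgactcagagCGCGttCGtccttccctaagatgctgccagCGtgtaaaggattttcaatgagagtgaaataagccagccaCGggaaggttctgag
Zfp296: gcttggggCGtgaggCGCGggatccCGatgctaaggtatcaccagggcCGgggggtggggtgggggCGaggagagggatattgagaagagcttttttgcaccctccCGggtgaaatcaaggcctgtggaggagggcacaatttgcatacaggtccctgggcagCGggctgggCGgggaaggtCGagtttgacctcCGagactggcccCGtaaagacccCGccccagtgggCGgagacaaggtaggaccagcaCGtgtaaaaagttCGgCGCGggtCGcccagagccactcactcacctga
Zfp365: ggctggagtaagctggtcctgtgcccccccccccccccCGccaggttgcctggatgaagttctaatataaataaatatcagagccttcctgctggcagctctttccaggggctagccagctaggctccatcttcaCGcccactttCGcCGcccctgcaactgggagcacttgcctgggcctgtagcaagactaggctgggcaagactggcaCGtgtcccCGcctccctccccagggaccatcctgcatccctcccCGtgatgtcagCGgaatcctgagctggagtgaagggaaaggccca

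The 6 windows differed widely in CpG content. Zfp422 held 32 CpGs at 71% GC, Zfp296 held 19 at 63.3% and Zfp385b held 12 at 46%. Zfp365 held 8 at 61.3%, Zfp773 held 7 at 48.7% and Zfp239 held 6 at 36.7%. Promoters on both sides of the family's median were therefore among those listed. The median was 14 CpGs over 404 windows of Zfp genes and 7 over all 32851 RefSeq windows. The 16 windows covered at least in part by a lower H3K9ac promoter peak had a median of 9 CpGs (range 1 to 32). The 2 covered at least in part by a higher one, at Zfp385b and Zfp454, held 12 and 16. The letters TATAAA, searched on both strands and whether or not they overlapped the other motif, were in the windows of Zfp239 and Zfp365 and in 6.93% of Zfp windows, against 13.6% of all windows. CCAAT, searched in the same way, was in the window of Zfp773 and in 47.8% of Zfp windows, against 37.4% of all windows. A match describes the letters only.

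H3K9ac at zinc-finger genes was lower in knockout at 55 of 71 listed peaks and higher at 16. The lower share was 77.5% (exact 95% binomial interval 66.0 to 86.5, counting error only), close to the 77.2% lower among all listed H3K9ac peaks. An FDR under 0.05 was reached by 11 members, or 15.5%, against 16.6% of all listed peaks. Both shares cover the listed peaks only, and peaks of p below 0.0001 are not among them. Neither share stood far from that of all listed peaks. The median size of the difference among lower peaks was 2.03-fold in members and 2.19-fold in all listed peaks, and among higher peaks 2.56-fold in members and 2.50-fold in all listed peaks. The log2 mean of normalised reads at lower members ran from -0.19 to 9 in knockout (median 5.42) and from 3.48 to 9.75 in wild type (median 6.33) in the authors' deposited table. At higher members it ran from 3.91 to 8.14 in knockout (median 5.15) and from 0.78 to 7.45 in wild type (median 3.86) in the authors' deposited table. Lower peaks thus included the members of strongest signal in both genotypes. A peak called higher has less signal in wild type than in knockout by definition, so the wild-type medians are not independent of the direction. In knockout the medians were 5.15 at higher and 5.42 at lower members. Of the 39 member peaks with a signal at or above the median of the whole table, 34 were lower and 5 higher, or 87.2% lower, against 81.6% of all listed peaks of such signal.

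**Figure D1:**
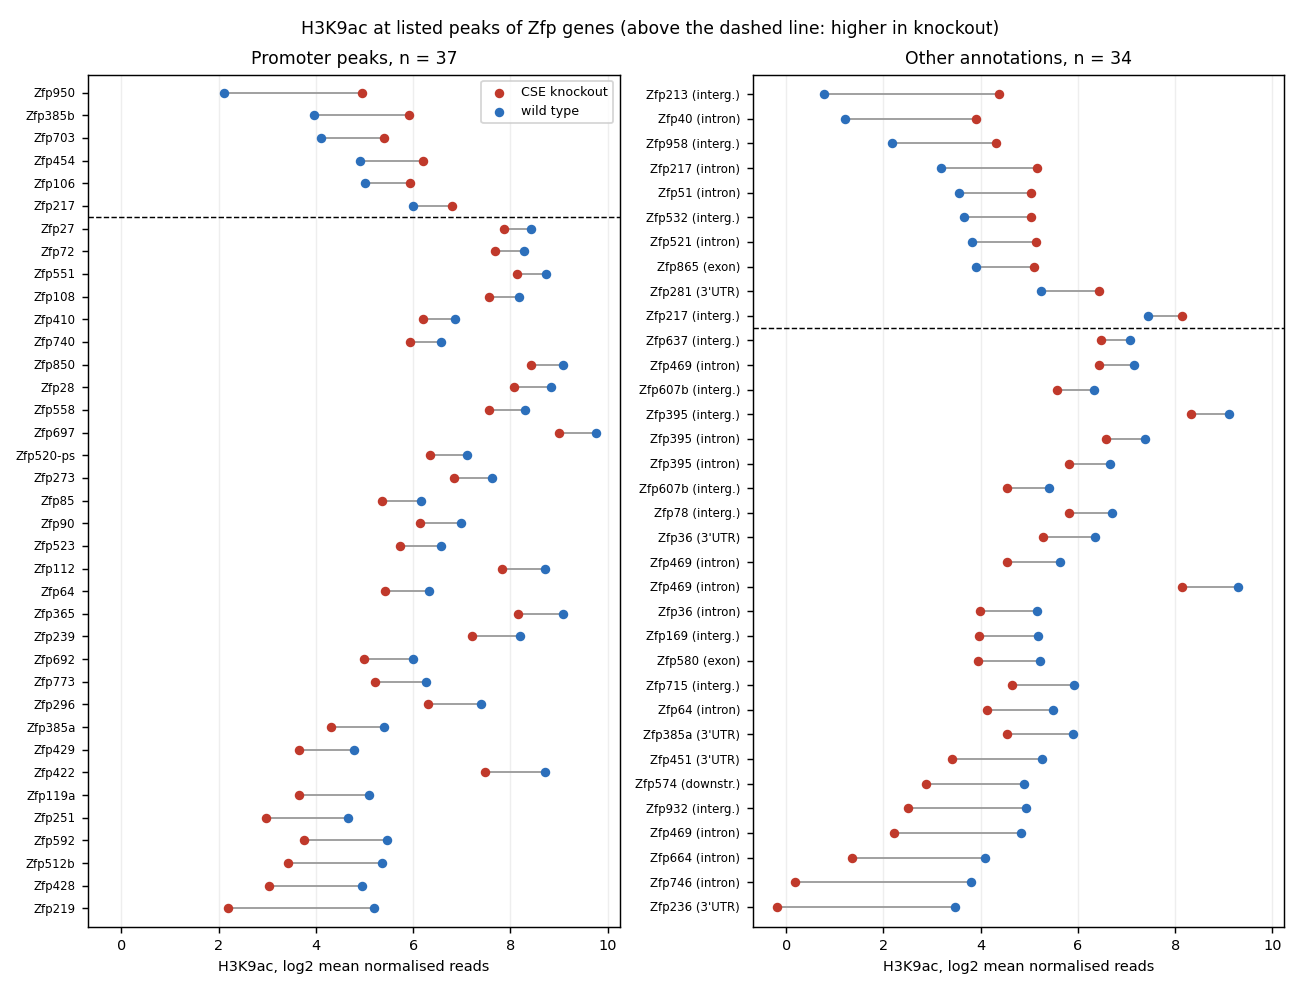
Each row is 1 listed H3K9ac peak at a zinc-finger gene, with the authors' log2 mean of normalised reads in CSE knockout (red) and wild type (blue), promoter peaks on the left (n = 37) and all other annotations on the right (n = 34, interg. for intergenic). Rows above the dashed line are higher in knockout (6 of 37 and 10 of 34), and the rows are sorted by the difference within each panel.

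Promoters made up 37 of the 71 H3K9ac peaks (52.1%, against 44.9% of all listed peaks), each at a different gene. Of these 37, 31 were lower and 6 higher in knockout, or 83.8% lower, against 79.3% of all listed promoter peaks. Over all genes with a listed promoter peak, 78.1% were lower by the promoter peak of smallest p. Within 1 kb of a start site 25 of 28 were lower (89.3%, against 80.8% of all listed peaks there), and from 1 to 3 kb 6 of 9 were lower (66.7%, against 76.9%). Introns had 10 lower peaks of 14 (71.4%, against 74.5% of all listed intron peaks) and intergenic sites 8 of 12 (66.7%, against 69.4%). The interval of each of these H3K9ac member shares held the share of all listed peaks in the same class, as the plot of shares by annotation shows. A promoter here is one of the authors' annotated transcripts, and 18 of the 37 promoter peaks lay over the RefSeq promoter window of the same gene (48.6%, against 19.1% of all listed promoter peaks). Not every gene has such a window, and among promoter peaks of genes that do, 18 of 32 lay over it (56.25%, against 28.25% of 2460 over all genes). Of these 18, 16 were lower and 2 higher, or 88.9% lower, against 77.6% of the 695 such peaks over all genes, and none of these differences was tested.

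**Figure D2:**
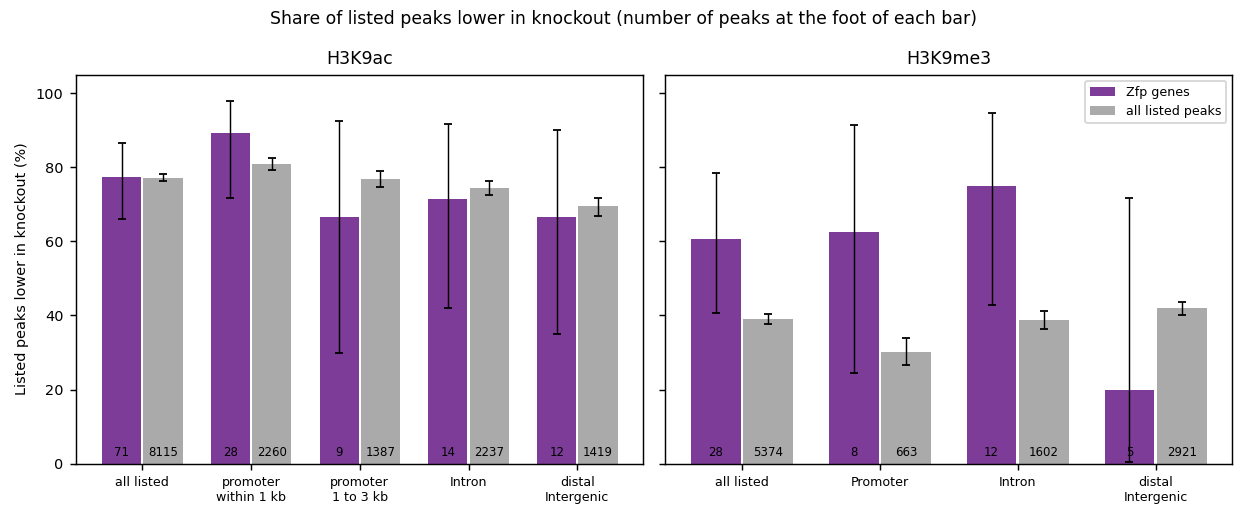
Percent of listed peaks that were lower in CSE knockout, for zinc-finger genes (purple) and all listed peaks (grey) by mark and annotation, with exact 95% binomial intervals that cover counting error only and the number of peaks at the foot of each bar. For H3K9ac the purple and grey bars over all annotations are 77.5% and 77.2%, and for H3K9me3, where Zfp423 is left out, 60.7% and 39.0%, with wide intervals on the purple bars.

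Among the listed lower H3K9ac peaks of members, the smallest FDR was at Zfp219, a transcription factor that works with Sox9 in mouse cartilage. Its peak at chr14:52006900-52007664 had a log2 mean of 2.20 in knockout and 5.19 in wild type, in the authors' deposited table (log2 fold change -2.99, FDR 0.00879). This peak is at the start of one of the authors' transcripts but 12049 bp from the RefSeq start of Zfp219. Zfp422, known in the mouse as Krox-26 from the developing tooth, had 7.48 in knockout and 8.71 in wild type over its promoter printed above (log2 fold change -1.23, FDR 0.0157) in the authors' deposited table. Zfp932, a Krab protein that represses retroviral repeats in mouse embryonic stem cells, had 2.51 in knockout and 4.94 in wild type at an intergenic peak 16.8 kb from the start (log2 fold change -2.43, FDR 0.02) in the authors' deposited table. These 3 were a strongly acetylated promoter and 2 peaks of much lower signal. Zfp592 had 3.76 in knockout and 5.47 in wild type (log2 fold change -1.71, FDR 0.0208) in the authors' deposited table, at a promoter peak that lies 45150 bp from its RefSeq start. Zfp239, also known as Mok2, had 7.21 in knockout and 8.19 in wild type over its printed promoter (log2 fold change -0.97, FDR 0.0307) in the authors' deposited table. Zfp428 had 3.03 in knockout and 4.95 in wild type (log2 fold change -1.93, FDR 0.0474) in the authors' deposited table. Its peak overlaps both its own RefSeq gene and the neighbouring RefSeq gene Cadm4. Zfp773 had 5.21 in knockout and 6.26 in wild type over its printed promoter (log2 fold change -1.05, FDR 0.0482) in the authors' deposited table. Zfp422 and Zfp239 had the most reads of these peaks, 179 and 148 in knockout and 419 and 292 in wild type, as computed from the authors' deposited table.

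Of the 11 members with an FDR under 0.05, 3 were higher in knockout. Over all listed H3K9ac peaks 1850 of 8115 were higher, and the directions of all those with an FDR under 0.05 were not counted. Zfp950 had 4.95 in knockout and 2.11 in wild type at chr19:61138755-61139372 (log2 fold change 2.84, FDR 0.00837) in the authors' deposited table, 1.39 kb from a start site. Zfp213 had 4.38 in knockout and 0.78 in wild type (log2 fold change 3.60, FDR 0.0112) at an intergenic peak of 250 bp in the authors' deposited table. Zfp385b, of a small family of p53-linked zinc-finger proteins, had 5.92 in knockout and 3.97 in wild type over its printed promoter (log2 fold change 1.95, FDR 0.014) in the authors' deposited table. The wild-type mean was 1.72 reads at the Zfp213 peak and 4.32 at the Zfp950 peak, so their folds rest on few wild-type reads, while at Zfp385b it was 15.7 reads, all as computed from the authors' deposited table. Among the higher peaks with larger FDRs, Zfp454 had 6.20 in knockout and 4.90 in wild type at its promoter (FDR 0.0583) in the authors' deposited table. Zfp703, the mouse counterpart of a human breast cancer gene, had 5.41 in knockout and 4.10 in wild type (FDR 0.218) in the authors' deposited table. Zfp106, an RNA-binding protein needed by motor neurons in mice, had 5.94 in knockout and 5.01 in wild type (FDR 0.167) in the authors' deposited table. These 3 were moderate differences of 1.91- to 2.48-fold that did not pass an FDR of 0.05.

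In all, 7 genes had more than 1 listed H3K9ac peak, and within each of them all peaks had the same direction. How often this holds over all genes with more than 1 listed peak was not counted, and 77.2% of all listed H3K9ac peaks were lower. Zfp217, whose human counterpart is an oncogene that encodes a corepressor-binding factor, had 3 peaks, all higher in knockout. Its promoter peak had 6.79 in knockout and 5.99 in wild type, its intronic peak 5.15 in knockout and 3.19 in wild type, and its intergenic peak 8.14 in knockout and 7.45 in wild type, in the authors' deposited table. The 3 FDRs were 0.117, 0.0629 and 0.238 in the authors' deposited table, and none passed 0.05. Zfp395, a factor induced by hypoxia in human cells, had 3 peaks, all lower, with differences of 1.71- to 1.80-fold and no FDR under 0.05 in the authors' deposited table. Zfp469, the mouse counterpart of the human gene of brittle cornea syndrome, had 4 peaks, all lower. The strongest of them had 8.14 in knockout and 9.29 in wild type (FDR 0.137) and the weakest 2.22 in knockout and 4.82 in wild type (log2 fold change -2.60, FDR 0.0254), in the authors' deposited table. The 4 Zfp469 peaks lay in what the authors annotate as intron 1 of a transcript of another gene, and 3 of them lay inside the RefSeq gene of Zfp469. Zfp64, Zfp36, Zfp385a and Zfp607b had 2 peaks each, all lower and all with an FDR above 0.05. At Zfp64, whose human counterpart supports expression of the MLL gene in leukaemia, the promoter peak had 5.42 in knockout and 6.33 in wild type (FDR 0.28) and the intronic peak 4.14 in knockout and 5.48 in wild type (FDR 0.22), in the authors' deposited table. Among genes with 1 peak, Zfp697 had the strongest signal of the listed member promoter peaks, with 9 in knockout and 9.75 in wild type (FDR 0.296) in the authors' deposited table. Zfp90, a Krab protein, had 6.14 in knockout and 6.99 in wild type (FDR 0.0969), and Zfp664 had 1.35 in knockout and 4.08 in wild type (FDR 0.106), in the authors' deposited table.

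The mRNA decay factor Zfp36 was called lower, but its 2 H3K9ac peaks lay 3.17 and 5.55 kb from the start, in the annotated parts of other genes. The nearer peak had 3.98 in knockout and 5.15 in wild type (FDR 0.182) in the authors' deposited table. The farther one, over Med29, had 5.28 in knockout and 6.36 in wild type (FDR 0.0553) in the authors' deposited table. Zfp385a, a partner of p53, likewise had 1 peak 0.81 kb from its start, with 4.32 in knockout and 5.40 in wild type (FDR 0.277), in the authors' deposited table. Its other peak lay over Itga5, an integrin subunit, with 4.55 in knockout and 5.90 in wild type (FDR 0.0777) in the authors' deposited table. None of these 4 peaks overlapped the RefSeq gene it is assigned to. In all, 23 of the 71 H3K9ac peaks lay outside the RefSeq gene they are assigned to. The same share over all listed H3K9ac peaks was not counted, so this is not shown to be particular to zinc-finger genes.

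Chromosome 7 held 19 of the 71 H3K9ac peaks, or 26.8%, against 7.81% of all listed peaks. The family is itself crowded there, since 93 of 396 protein-coding Zfp genes (23.5%) are on chromosome 7 in RefSeq, against 9.27% of all protein-coding genes. Of the 19 peaks, 18 were lower and 1, at Zfp865, higher, while 91.3% of all listed H3K9ac peaks of the chromosome were lower. The members of chromosome 7 were thus close to the chromosome as a whole. Chromosome 2 had 3 lower and 5 higher member peaks, 3 of the 5 at Zfp217, where 71.3% of all listed peaks were lower. Chromosome 17 had 2 lower and 3 higher member peaks, where 76.7% of all listed peaks were lower.

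Genes with listed peaks less than 1 Mb apart were taken as 1 group, which gave 11 groups of at least 2 genes with 36 genes in all, and 5 groups of at least 3 genes with 24 genes. The 3 such groups of chromosome 7, with 3, 6 and 4 member genes, held 12 H3K9ac member peaks, all lower. At the same places listed H3K9ac peaks of other genes came to 15 lower and 2 higher. The group on chromosome 13, chr13:66715727-67814630, had 3 lower H3K9ac peaks (Zfp273, Zfp429 and Zfp85), 2 higher H3K9me3 peaks (Zfp640 and Zfp874a) and 1 listed H3K4me3 peak. Other genes within it had 4 higher and no lower H3K9me3 peaks, and on the whole of chromosome 13 82.5% of listed H3K9ac peaks and 15.6% of listed H3K9me3 peaks were lower. The group on chromosome 17, chr17:21453754-23567921, went the other way, with 3 higher H3K9ac peaks (Zfp51, Zfp40 and Zfp213) and, for H3K9me3, 3 lower peaks (Zfp229, Zfp995 and 1 of 2 at Zfp758) and 1 higher. Other genes within the chromosome 17 group had 2 lower and no higher H3K9ac peaks, and 2 lower and 2 higher H3K9me3 peaks. No gene of the chromosome 13 or 17 group had both H3K9ac and H3K9me3 listed, so these opposite directions are between neighbouring genes. Zfp51 had 5.03 in knockout and 3.55 in wild type (FDR 0.159), and Zfp40 had 3.91 in knockout and 1.21 in wild type (FDR 0.169), for H3K9ac in the authors' deposited table. The difference between the groups was not tested.

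H3K9me3 at zinc-finger genes was lower in knockout at 17 of 28 listed peaks and higher at 11. The lower share was 60.7% (exact 95% binomial interval 40.6 to 78.5, counting error only), against 39.0% of all listed H3K9me3 peaks. This majority depends on leaving out Zfp423, whose 21 listed H3K9me3 peaks were all higher in knockout. With Zfp423 17 of 49 peaks were lower (34.7%), and with 1 peak per gene 16 of 28 genes (57.1%). Without Zfp423, and with 1 peak per gene, 16 of 27 genes were lower (59.3%), against 39.6% of all genes. The authors' deposited table gives every one of the 28 an FDR of 1, and the share of all listed H3K9me3 peaks with an FDR under 0.05 was 0. No listed H3K9me3 difference thus passed the authors' correction, and peaks of p below 0.00011 are not among those listed. The lower majority was of weak peaks: among the 10 member peaks with a signal at or above the table's median, 4 were lower and 6 higher, and among the 3 with p under 0.01, 1 was lower and 2 higher. When the other listed peaks were weighted to the members' chromosomes their lower share was 31.8%, to their annotation 34.4%, to their signal 40.3% and to their p range 42.5%. At promoters 5 of 8 members were lower, against 30.2% of all listed promoter peaks. Within 1 kb of a start site 0 of 2 were lower, against 22.8% of all listed peaks there. From 1 to 3 kb 5 of 6 were lower, against 37.8%. Of the 8 promoter peaks, 0 lay over a RefSeq promoter window of any gene, against 10.9% of all listed promoter peaks. In introns 9 of 12 were lower, against 38.7% of all listed intron peaks, and at intergenic sites 1 of 5, against 41.9% of all listed intergenic peaks.

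**Figure D3:**
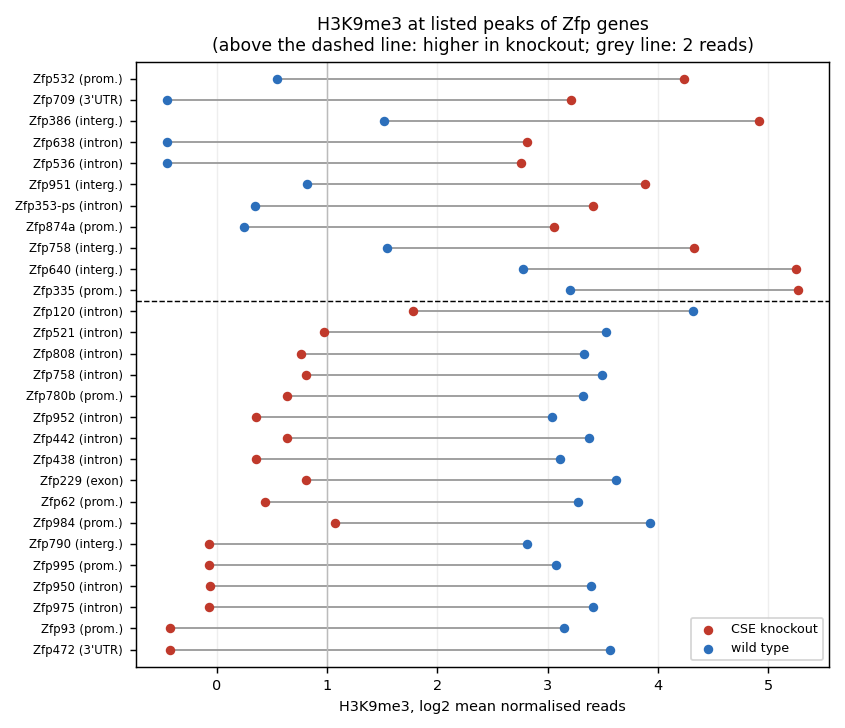
Each row is 1 listed H3K9me3 peak at a zinc-finger gene (n = 28), with the authors' log2 mean of normalised reads in CSE knockout (red) and wild type (blue) and the annotation in brackets (prom. for promoter, interg. for intergenic). The 11 rows above the dashed line are higher in knockout, and in 22 of the 28 rows 1 genotype lies left of the grey line at 2 reads.

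The reads behind the H3K9me3 values were few. Members had a median of 5.90 normalised reads over all libraries and all listed H3K9me3 peaks 6.68, against 47.8 in members and 40.8 in all listed peaks for H3K9ac. In 1 genotype or the other, the mean was under 2 reads at 22 of the 28 members, and at 3958 of all 5374 listed peaks. Lower members had 0.747 to 3.43 reads in knockout (median 1.36) and 7.01 to 19.97 reads in wild type (median 10.4), as computed from the authors' deposited table. Higher members had 6.77 to 38.6 reads in knockout (median 14.7) and 0.732 to 9.19 reads in wild type (median 1.46), as computed from the authors' deposited table. The groups of a peak differ by few reads, and a log2 fold change of this size depends on how the authors treat peaks with no reads, which the sources used here do not state.

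Among the lower H3K9me3 peaks the one of smallest p was at Zfp472, with a log2 mean of -0.42 in knockout and 3.57 in wild type at its 3′ end (log2 fold change -3.99, FDR 1) in the authors' deposited table. Zfp975 had -0.07 in knockout and 3.41 in wild type in intron 1 (log2 fold change -3.48, FDR 1) in the authors' deposited table. Zfp93 had -0.42 in knockout and 3.15 in wild type at an annotated promoter (log2 fold change -3.57, FDR 1) in the authors' deposited table. The value of -0.42 at Zfp472 and Zfp93 was the lowest knockout value in the whole H3K9me3 table. Zfp984 had 1.07 in knockout and 3.93 in wild type (log2 fold change -2.86, FDR 1), and Zfp995 had -0.07 in knockout and 3.08 in wild type (log2 fold change -3.16, FDR 1), in the authors' deposited table. Zfp120, Zfp438, Zfp780b and Zfp808 had log2 fold changes of -2.54, -2.75, -2.68 and -2.57 in the authors' deposited table, all at FDR 1. Their knockout values ran from 0.36 to 1.78 and their wild-type values from 3.11 to 4.32 on the log2 scale in the authors' deposited table.

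Among the higher H3K9me3 peaks, Zfp386 had 4.92 in knockout and 1.52 in wild type at an intergenic site (log2 fold change 3.40, FDR 1) in the authors' deposited table. Zfp335, whose human counterpart is mutated in microcephaly, had the strongest signal of the higher peaks in both genotypes, with 5.27 in knockout and 3.20 in wild type (log2 fold change 2.07, FDR 1) in the authors' deposited table. Zfp640 was next in knockout, with 5.25 in knockout and 2.78 in wild type (log2 fold change 2.47, FDR 1), in the authors' deposited table. Both had more wild-type reads than the other higher peaks, 9.19 at Zfp335 and 6.87 at Zfp640, as computed from the authors' deposited table. Zfp638, a DNA-binding protein that silences unintegrated retroviral DNA in human cells, had 2.81 in knockout and -0.45 in wild type (FDR 1) in the authors' deposited table. Zfp536, a repressor of neuronal differentiation, had 2.76 in knockout and -0.45 in wild type (FDR 1), and Zfp709 had 3.21 in knockout and -0.45 in wild type (FDR 1), in the authors' deposited table. The value of -0.45 was the lowest wild-type value of the table. Zfp951, the pseudogene Zfp353-ps and Zfp874a had log2 fold changes of 3.06, 3.05 and 2.81 (FDR 1 each) in the authors' deposited table. Zfp758 had peaks in both directions, with 0.81 in knockout and 3.49 in wild type in intron 1, and 4.33 in knockout and 1.54 in wild type at an intergenic site, in the authors' deposited table.

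H3K9me3 peaks of zinc-finger genes lay inside the gene in a larger share than those of other genes did. With protein-coding genes alone, 16 of 27 member peaks (59.3%) lay inside the authors' transcript, against 35.8% of 1694 peaks of other protein-coding genes. Of the 16 inside, 12 were lower and 4 higher in knockout, or 75% lower, against 35.8% of 606 such peaks of other genes. Of the 11 outside, 5 were lower and 6 higher, or 45.5% lower, against 42.4% of 1088 such peaks of other genes. Of the 21 Zfp423 peaks 9 lay inside its transcript, and with them 12 of 25 inside peaks were lower (48%). The lower majority among members was thus found at peaks inside the transcript when Zfp423 is left out, and the difference between inside and outside was not tested.

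H3K4me3 was listed at 9 zinc-finger genes, 7 of them at promoters (77.8%, against 87.6% of all listed H3K4me3 peaks). The 7 were Zfp36l2, an mRNA decay factor, Zfp746, which represses Ppargc1a, Zfp296, a factor that aids reprogramming in the mouse, and Zfp365, Zfp61, Zfp800 and Zfp874a. The other two were at the 3′ end of Zfp281, a regulator of embryonic stem cells, and in an intron at Zfp469. Peaks of members had a median length of 1168 bp and all listed H3K4me3 peaks 1104 bp. No direction can be given for this mark.

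More than 1 mark was listed at 9 genes. H3K9ac and H3K4me3 shared 5 genes, which is 8.33% of the 60 H3K9ac genes and 55.6% of the 9 H3K4me3 genes. Over all listed genes 166 were shared, or 2.81% of the H3K9ac genes and 36.4% of the H3K4me3 genes. At 4 of the 5 the peaks overlapped, which makes 5.63% of member H3K9ac peaks, against 0.875% of all listed H3K9ac peaks, a difference that was not tested. At Zfp296 H3K9ac had 6.31 in knockout and 7.40 in wild type (FDR 0.0553) in the authors' deposited table, and its peak held all 855 bp of the H3K4me3 peak. At Zfp365, a gene linked to genome stability in humans, H3K9ac had 8.15 in knockout and 9.09 in wild type (FDR 0.193) in the authors' deposited table, and its peak held all 1021 bp of the H3K4me3 peak. At Zfp469 the strongest of the 4 H3K9ac peaks held the whole H3K4me3 peak of 1168 bp. In these 3 genes the H3K9ac peak that overlaps H3K4me3 was lower in knockout. At Zfp281 it was higher, with 6.43 in knockout and 5.25 in wild type (FDR 0.149) in the authors' deposited table, over 1211 bp of the H3K4me3 peak. Over all genes 71 listed H3K9ac peaks overlapped a listed H3K4me3 peak, 69 lower and 2 higher, and the Zfp281 peak was 1 of the 2. At Zfp746 the marks were 11.7 kb apart, with H3K9ac of 0.19 in knockout and 3.81 in wild type (FDR 0.0633) in the authors' deposited table.

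H3K9ac and H3K9me3 shared 3 genes, which is 5% of the 60 H3K9ac genes and 11.1% of the 27 H3K9me3 genes. Over all listed genes 309 were shared, or 5.23% of the H3K9ac genes and 7.82% of the H3K9me3 genes. In none of the 3 did the peaks overlap, and of all 8115 listed H3K9ac peaks 4 overlapped a listed H3K9me3 peak. At Zfp950 H3K9ac was higher in knockout, as given above, and H3K9me3 was lower, with -0.06 in knockout and 3.39 in wild type (FDR 1) in the authors' deposited table, 4.27 kb away in intron 1. At Zfp521, which represses fat cell formation in the mouse, H3K9ac had 5.14 in knockout and 3.82 in wild type (FDR 0.215), and H3K9me3 0.97 in knockout and 3.53 in wild type (FDR 1), in the authors' deposited table. The Zfp521 peaks stood 107 kb apart in a long gene. At Zfp532 both marks were higher, H3K9ac with 5.03 in knockout and 3.65 in wild type (FDR 0.306) and H3K9me3 with 4.24 in knockout and 0.55 in wild type (FDR 1), in the authors' deposited table. So the marks had opposite directions at Zfp950 and Zfp521 and the same direction at Zfp532, and the H3K9ac peak of Zfp950 alone had an FDR under 0.05. H3K9me3 and H3K4me3 shared Zfp874a, with peaks 16.9 kb apart, and this H3K9me3 peak lay over the neighbouring Zfp459.

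**Figure D4:**
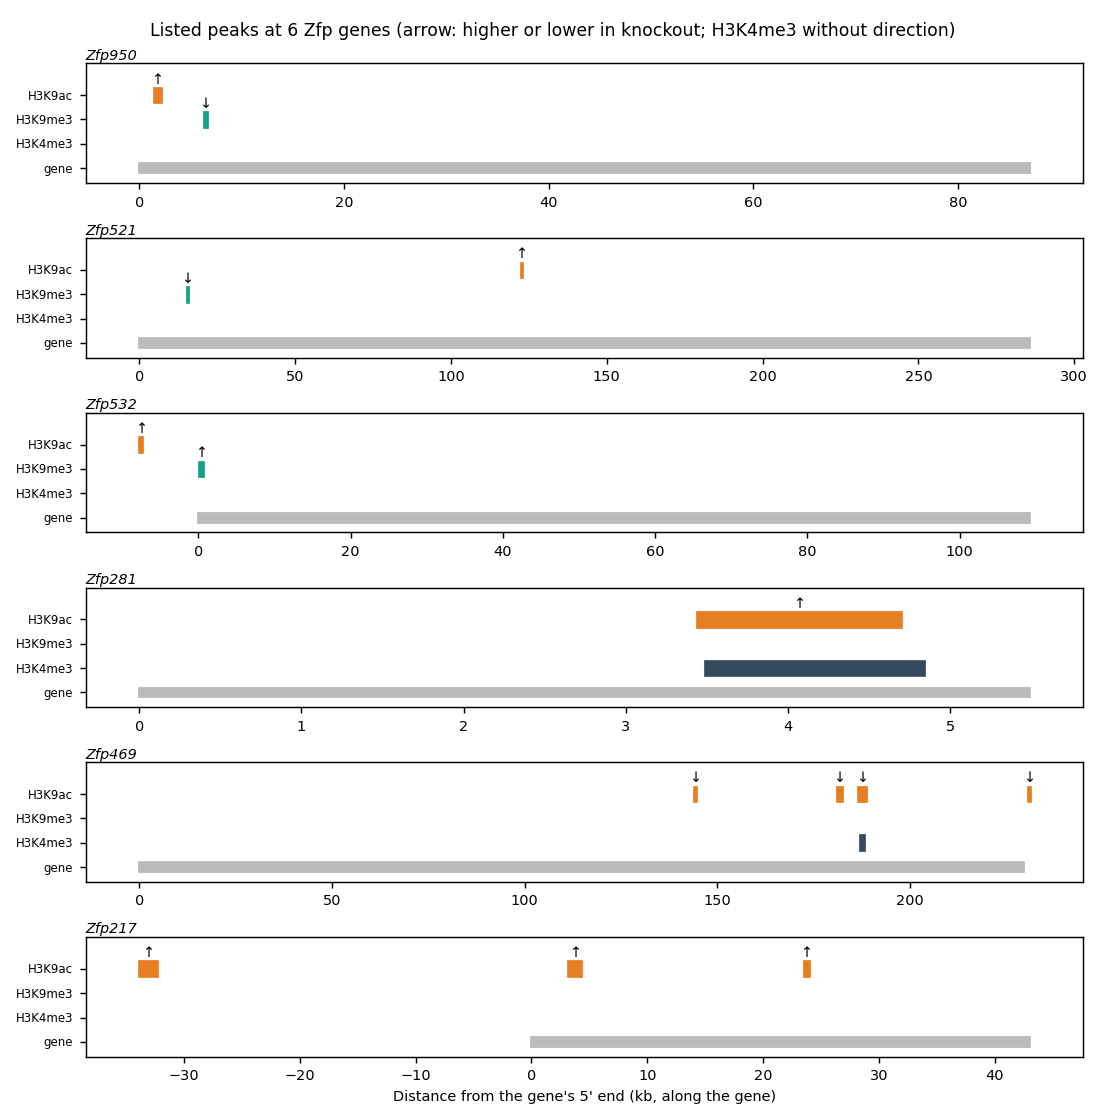
Listed peaks at 6 zinc-finger genes against the distance in kb from the RefSeq 5′ end along the gene, with 1 row for each mark, the gene in grey and arrows for higher or lower in CSE knockout (H3K4me3 has no direction). The H3K9ac and H3K4me3 peaks coincide at Zfp281 and at 1 of 4 H3K9ac peaks of Zfp469, while H3K9ac and H3K9me3 peaks stand apart at Zfp950, Zfp521 and Zfp532.

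The genes of the repressor complex that Krab proteins use were looked up as well. The list held 27 symbols, among which Fam208a and Tasor name the same gene. A listed H3K9ac peak was found at 10 of them, while 18.1% of all protein-coding genes had one. By the peak of smallest p 9 were lower and 1 higher in knockout. An FDR of 0.05 was passed by 1 of the 10, against 20.7% of all listed genes by the peak of smallest p. The gene that passed was Trim28, the corepressor itself, at a peak the authors annotate as promoter. This peak had 6.36 in knockout and 7.39 in wild type (log2 fold change -1.03, FDR 0.0227) in the authors' deposited table. Another peak assigned to Trim28, annotated as intron and at -4828 bp from a start, had 4.89 in knockout and 3.67 in wild type (FDR 0.269) in the authors' deposited table. By their positions these peaks were measured from different starts, and neither was compared with the RefSeq start of Trim28. Atf7ip, counted as lower by its peak of smallest p, also had 2 higher H3K9ac peaks at its promoter. The maintenance DNA methyltransferase Dnmt1 had 3 peaks, all lower, with log2 fold changes of -1.79, -1.06 and -0.93 and no FDR under 0.05 in the authors' deposited table. The heterochromatin protein genes Cbx3 and Cbx5 were lower, at -1.15 and -1.52 by the peak of smallest p, and Cbx1 higher at 1.11, with no FDR under 0.05 in the authors' deposited table. With 9 of 10 genes lower against 75.8% of all listed genes by the peak of smallest p, the list was not tested as a set. H3K9me3 was listed at 1 of the 27, Atf7ip, a partner of Setdb1, with 1.90 in knockout and 4.20 in wild type (FDR 1) in the authors' deposited table. H3K4me3 was listed at none of the 27 symbols.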

How the data were processed

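ChIP-seq of H3K9ac, H3K9me3 and H3K4me3 in knockout and wild-type cells was analysed from 3 tables of the authors, 1 row per listed peak. For H3K9ac and H3K9me3 the authors deposited log2 means of normalised reads per genotype and a log2 fold change of knockout over wild type, with a p-value and an FDR (a q-value), per the file headers. The submitters' processing notes name CASAVA 1.4 and mm9. For aligner, peak caller, normalisation and test: not given in the sources used here. A RefSeq promoter window of GRCm38.p6 was overlapped by 55.5% of H3K4me3, 20.8% of H3K9ac and 10.9% of H3K9me3 promoter peaks. Positions were taken as GRCm38, and mm9 positions were not compared. At some member peaks the authors' distance to a start equalled that to the gene's GRCm38 RefSeq start. Examples for H3K9ac were Zfp217 (intronic peak, 3052 bp), Zfp281 (3438 bp) and Zfp692 (2964 bp). At other member peaks the distances differed. No listed p was below 0.000101 for H3K9ac or 0.00011 for H3K9me3, and peaks of smaller p were not analysed here.

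Directions were counted over member rows and over all listed peaks with Python 3.11.15, numpy 2.4.6, pandas 2.3.3 and scipy 1.17.1, and plotted with matplotlib 3.10.9, after the functions were tested on simulated data. Reads are 2 to the power of the deposited log2 value. Overlaps are of at least 1 bp. Promoter means within 3 kb of a start site, as the authors annotate it. Members and lists were chosen with earlier results of these data known. Named genes are, per mark, those with an FDR under 0.05, the 10 of smallest p per direction, those with 3 or more peaks or more than 1 mark, all H3K4me3 members and a list of genes of known role. Neighbours in position groups were named after their values were seen. RefSeq matched all 87 symbols, and 70 had a promoter window. Protein features and tests per library were not run. Zfp423 was left out by the rule for members. Alternatives were stricter p, FDR, fold, signal, promoter and chromosome choices, 1 call per gene, and merged neighbours.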

Additional observations from a re-analysis of the deposited data

How the results depend on the processing

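The lower share of H3K9ac member peaks was 77.5% as listed, 63.6% (7 of 11) at an absolute log2 fold change of at least 2, and 87.2% (34 of 39) at a signal at or above the table's median, and it lay between 66.7% and 83.8% under the other 10 alternatives. For H3K9me3 the lower share of 60.7% turned to a minority at p under 0.01 (33.3%, 1 of 3 peaks, and 33.3% also with 1 call per gene, against 59.3%) and at a signal at or above the median (40%, 4 of 10), which leave few peaks, and also with Zfp423 included (34.7%, 17 of 49), and under its other 8 alternatives it lay between 54.5% and 73.7%. H3K9ac members past the threshold numbered 21 at an FDR under 0.1 instead of 11 at 0.05, and the genes with more than 1 mark numbered 3 instead of 9 with promoter peaks alone. At p under 0.001 no H3K9me3 member was left. No paired analysis was possible because the tables hold no value per library, and leaving out a replicate was not possible for the same reason. The alternative restricted to proteins with C2H2 matches was not run, since no protein sequences were used here. The alternatives without chromosomes 4 and 18, without pseudogenes, with Zfp423, and with peaks inside the authors' transcript or at its promoter were chosen after seeing the data. The share of lower genes by H3K9ac promoter peak was 83.8% and lay between 76.7% and 89.3% under its 4 alternatives. Few reads limit all H3K9me3 values.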

Other observations

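The family as a whole was not listed more often than other genes for H3K9ac. Of 396 protein-coding Zfp genes in RefSeq 59 had a listed H3K9ac peak (14.9%), against 18.1% of all 21900 protein-coding genes. For H3K9me3 the share was 6.57% of Zfp genes against 5.52% of all genes, for H3K4me3 2.27% of Zfp genes against 1.83% of all genes, and for any mark 21.5% of Zfp genes against 23.7% of all genes. With promoter peaks alone, the share for H3K9ac was 9.09% of Zfp genes against 10.8% of all genes, for H3K9me3 2.02% of Zfp genes against 1.15% of all genes, and for H3K4me3 1.77% of Zfp genes against 1.68% of all genes. Listing needs a difference between genotypes, so these shares do not count genes that carry a mark. The median distance of a member peak from a start site was 2.64 kb for H3K9ac and 7.32 kb for H3K9me3, against 3.77 kb and 22.7 kb over all listed peaks of each mark. Within the transcript, the zinc-finger exons of such genes usually lie at the 3′ end, and 3 of 16 H3K9me3 members inside a transcript lay in its later part, past the midpoint, against 193 of 849 inside peaks over all genes. For H3K9ac 4 of 30 member peaks inside a transcript lay past its midpoint, against 563 of 3051 inside peaks over all genes. Member peaks of H3K9ac had a median length of 809 bp and those of H3K9me3 337 bp, against 718 bp and 397 bp over all listed peaks.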
